A study of Mus musculus with 10 samples.

Results

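Cytochromes P450 are the haem-containing monooxygenases that oxidise drugs, steroids, fatty acids and vitamins, and their transcripts were compared here between control and Dicer1-deleted mouse livers. The members were all genes on the array whose symbol starts with Cyp and a digit, other than Cyp7a1, Cyp7b1, Cyp8b1, Cyp27a1 and Cyp51, and there were 55 of them among 12366 genes. Each gene was represented by 1 probe set, the one with the highest mean over the 10 arrays. The mutants were DicerloxP/loxP;Afp-Cre+ mice, in which Cre recombinase is driven by regulatory sequence of Afp, a gene active in the fetal liver. The controls are described only as control, without their alleles. All 10 liver samples came from mice 28 days old, of mixed strain and fasted for 5 hours, and each had 1 array, 5 in each group.

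P450 enzymes of the liver sit mainly in the endoplasmic reticulum and take electrons from NADPH through a reductase, with cytochrome b5 as a second donor, while a few work in mitochondria with ferredoxin. Families 1 to 3 handle mostly foreign compounds and steroids, family 4 hydroxylates fatty acids, and the higher-numbered families make or degrade steroids, vitamin D and retinoic acid. Many mouse members are transcribed at different rates in males and females, under the control of the pattern of growth hormone release, and others are induced through the receptors AHR, CAR, PXR and PPARA.

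Values are on the log2 scale as deposited, differences are mutant minus control, and values of single arrays are listed for replicates 1 to 5 in order. A gene was called when its adjusted p from limma, corrected over all 12366 genes, was under 0.05. Levels of different probe sets are not comparable with each other. A value of 3.60, the 25th percentile of the table, is used as a floor below which differences depend on the treatment of background. The RNA came from whole liver, so fewer cells of a type and less RNA per cell cannot be told apart.

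The labels used here give no sex, and the arrays were classed by their probe sets for Y-linked genes. Control replicates 1, 4 and 5 and mutant arrays 1, 3 and 4 had Y-linked signal, with means from 6.10 to 6.27, and the other 4 arrays lay between 3.08 and 3.40 and were high for Xist. Both kinds of signal were present in some arrays: control array 4 had Xist values up to 6.72 and mutant array 3 up to 7.21. Of the hepatocyte markers measured, 5 in all, 0 were called by limma, 1 had an unadjusted p under 0.05, and their mean level ran from 15.62 to 15.78 in controls and from 15.54 to 15.76 in mutants. Among Kupffer cell markers 5 of 8 rose, with means from 9.37 to 10.33 in controls and from 10.36 to 10.85 in mutants, and among stellate cell markers 4 of 6 rose, with means from 9.25 to 9.59 and from 9.84 to 10.35. Of 5 endothelial markers 1 fell, with means from 9.34 to 9.73 and from 9.04 to 9.32. Of 4 biliary markers limma called 0, with 1 at an unadjusted p under 0.05, and means ran from 3.91 to 4.24 and from 4.21 to 4.97. Over all genes 8.62% were called higher and 11.5% lower. The part of these cell types in the P450 differences was not tested.

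Of the 55 P450 genes, 7 were higher and 6 were lower in the mutants. That is 23.6% of the members, against 20.1% of all genes, so the share of called genes lay near the background. Cyp1a2, Cyp2a12, Cyp2b9, Cyp2b13, Cyp2g1, Cyp3a16 and Cyp17a1 rose, and Cyp2c23, Cyp2c38, Cyp2j5, Cyp2u1, Cyp4b1 and Cyp39a1 fell. The background was 8.62% for higher and 11.5% for lower genes. Differences of at least 1 in either direction were seen for 14 members, or 25.5%, against 4.21% of all genes, and the median absolute difference was 0.32 in the family and 0.20 over all genes. The median signed difference was -0.04 in the family and -0.01 over all genes. Spread among the controls was also larger in the family, with a median SD of 0.26 against 0.16. Groups did not overlap for 7 members, or 12.7%, against 13.2% of all genes, with 5 higher against 6.17% and 2 lower against 6.99%. These were Cyp1a2, Cyp2a12, Cyp2c23, Cyp2g1, Cyp2j5, Cyp3a16 and Cyp17a1. The count of higher members lay between 5 and 7 without any 1 array. The count of lower members was 3 without control array 2, 1 without control array 3 or mutant array 4, 2 without control array 4 or mutant array 1 or 2, 4 without control array 1 or 5 or mutant array 3, and 8 without mutant array 5. Of the higher genes Cyp1a2, Cyp2a12, Cyp2g1, Cyp3a16 and Cyp17a1 stayed called without any 1 array, and of the lower genes Cyp2c23 did. Without both arrays of mixed signal those 5 higher genes were called and the other 8 called members were not. Adjusted p of these 8 lay between 0.0569 for Cyp2c23 and 0.162 for Cyp2b13.

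**Figure D1:**
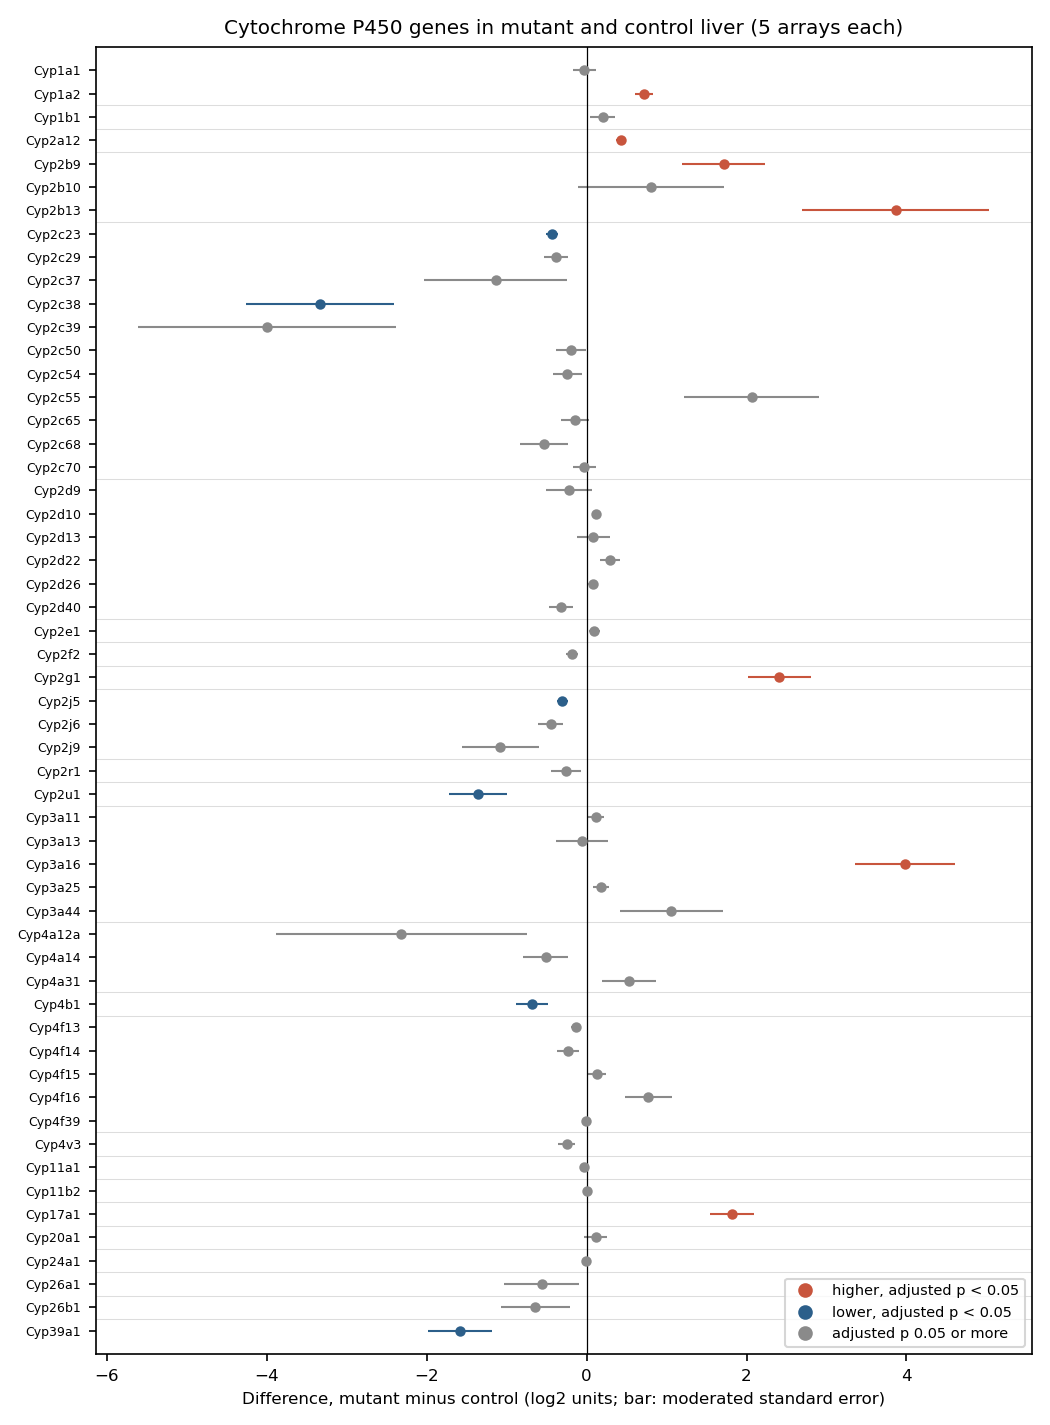
Difference between mutant and control liver for each of the 55 P450 genes, in log2 units, ordered by family and subfamily, with the moderated standard error as a bar. The 7 genes called higher and 6 called lower are coloured, and differences run from -4.00 for Cyp2c39, which was not called, to 3.98 for Cyp3a16.

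The sequences before the start sites of Cyp2b13 and Cyp2b9 are shown because both genes rose. They come from RefSeq on GRCm38.p6, cover the 250 bases upstream of the start and are given 5′ to 3′. Of the 55 members, 42 had an upstream window in this table. Cyp2b13 lies at chr7:26061245-26061494, plus strand, and Cyp2b9 at chr7:26173159-26173408, plus strand. Capitals mark the positions at which they differ.
Cyp2b13: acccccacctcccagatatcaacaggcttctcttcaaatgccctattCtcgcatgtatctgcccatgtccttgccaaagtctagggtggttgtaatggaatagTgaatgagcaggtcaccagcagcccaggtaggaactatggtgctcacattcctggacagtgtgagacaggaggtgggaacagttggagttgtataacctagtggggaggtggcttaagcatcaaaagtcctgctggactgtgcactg
Cyp2b9: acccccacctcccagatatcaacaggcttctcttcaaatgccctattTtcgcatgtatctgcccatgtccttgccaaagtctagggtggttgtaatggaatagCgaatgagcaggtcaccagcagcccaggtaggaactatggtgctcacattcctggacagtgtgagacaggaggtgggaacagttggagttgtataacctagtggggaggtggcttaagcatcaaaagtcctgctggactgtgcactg
The windows are identical at 248 of 250 positions, with the substitutions C48T and T104C from Cyp2b13 to Cyp2b9, counted from 1 at the 5′ end. Cyp2b10, the third measured Cyp2b gene, matched each of them at 182 of 260 aligned columns, or 70.0%.

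Windows of 2 Cyp3a genes are shown because Cyp3a16 rose and its close relative Cyp3a44 did not pass the test, with the letters CAAAGTCCA, a site type bound by HNF4A, in capitals where they occur. Cyp3a16 lies at chr5:145469724-145469973, minus strand, and Cyp3a44 at chr5:145805875-145806124, minus strand.
Cyp3a16: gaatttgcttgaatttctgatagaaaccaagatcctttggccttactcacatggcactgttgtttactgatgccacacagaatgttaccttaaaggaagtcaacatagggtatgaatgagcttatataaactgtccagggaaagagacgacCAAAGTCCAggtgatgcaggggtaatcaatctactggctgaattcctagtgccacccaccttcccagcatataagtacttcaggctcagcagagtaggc
Cyp3a44: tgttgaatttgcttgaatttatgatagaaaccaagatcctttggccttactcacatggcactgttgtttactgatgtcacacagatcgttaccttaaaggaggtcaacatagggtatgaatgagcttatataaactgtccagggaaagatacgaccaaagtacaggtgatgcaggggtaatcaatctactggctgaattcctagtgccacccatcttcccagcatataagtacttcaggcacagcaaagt
These windows matched at 236 of 254 aligned columns, or 92.9%, whereas Cyp3a11 matched Cyp3a16 at 200 of 261, or 76.6%. CAAAGTCCA was found, on either strand, in 5 of 42 members, or 5 of their 48 windows, and in 0.384% of 32851 windows of all genes. The 5 members were Cyp2c65, Cyp2c68, Cyp2c70, Cyp3a11 and Cyp3a16. All lie in the Cyp2c and Cyp3a subfamilies, and the likeness of windows within a subfamily was not taken into account. Of these 5 genes Cyp3a16 was called. TGTTTNC, a site type of FOXA factors, was found in 9 members, or 10 of their 48 windows, and in 17.8% of all windows. TTGCNNAA, a site type of C/EBP factors, was in 9 members, Cyp2b9, Cyp2b10 and Cyp2b13 among them, or 13 of 48 windows, and in 9.56% of all windows. TTCNNNGAA, the site type of STAT5, was in 2 members, Cyp4b1 and Cyp4f13, or 2 of 48 windows, and in 7.02% of all windows. Both strands were searched, no motif contains another, and a match is a run of letters and not a measured site.

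The Cyp2b genes encode steroid and drug hydroxylases, of which Cyp2b9 and Cyp2b13 are known for higher expression in adult females and Cyp2b10 for induction through CAR. Cyp2b9 read 10.45, 12.35, 11.75, 9.42 and 9.83 in the controls and 12.33, 12.45, 12.51, 12.42 and 12.66 in the mutants. All mutants lay between 12.33 and 12.66, while the controls spread over almost 3 log2 units, with both Xist-signal controls above the 3 with Y-linked signal and control array 2 inside the mutant range. The difference was 1.71 (SE 0.52, adjusted p = 0.0453). Cyp2b13 read 5.13, 10.35, 7.91, 3.70 and 4.42 in the controls and 9.54, 9.78, 10.74, 9.70 and 11.08 in the mutants. Again the controls with high Xist signal stood highest, and control array 2 lay within the mutant range. Cyp2b13 had a mean of 6.30 ± 2.77 (SD, n = 5) in controls against 10.17 ± 0.69 (SD, n = 5) in mutants, and the difference was 3.87 (SE 1.17, adjusted p = 0.0457). How far the probe sets of Cyp2b9 and Cyp2b13 share signal was not tested. The call of Cyp2b9 was kept without control array 2 or 3 and lost without any other single array (adjusted p up to 0.0931). Cyp2b13 kept its call without control array 2, where it differed by 4.88, and lost it without any other single array (adjusted p up to 0.0951). Cyp2b10 read 8.43, 5.62, 7.43, 5.21 and 6.58 in the controls and 4.87, 9.47, 6.55, 8.38 and 8.01 in the mutants. Its groups overlapped over most of their range, and the difference was 0.80 (SE 0.91, adjusted p = 0.592), with 3 probe sets between 0.66 and 0.80.

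Within the classes, Cyp2b13 was higher in the 3 mutants than in the 3 controls with Y-linked signal by 5.58 (SE 0.72, adjusted p = 0.0198). In the 2 against 2 arrays with Xist signal its difference was 1.30 (SE 0.88, adjusted p = 0.552). Without control array 4 and mutant array 3, which carry mixed signal, the difference in the first class was 4.84 and was not called (adjusted p = 0.149). Cyp2b9 was higher by 2.52 (SE 0.27, adjusted p = 0.013) in the first class, where it was 2.23 and not called without the mixed arrays (adjusted p = 0.102), and differed by 0.50 (SE 0.33, adjusted p = 0.535) in the second. The gap between Xist-signal and Y-signal arrays was 4.71 for Cyp2b13 and 2.15 for Cyp2b9 in the controls, and 0.43 and 0.14 in the mutants. The change in that gap had an unadjusted p of 0.0063 for Cyp2b13 and 0.00169 for Cyp2b9, and it did not pass adjustment over all genes (adjusted p = 1 for both).

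Cyp3a enzymes hydroxylate steroids and a large share of drugs, and Cyp3a16 is known as a fetal and neonatal form that persists in females. Cyp3a16 read 2.83, 5.38, 6.19, 3.41 and 4.51 in the controls and 8.05, 9.36, 8.25, 7.77 and 8.80 in the mutants. Every mutant lay above every control, and 2 controls, replicates 1 and 4, lay below the floor. Its difference was 3.98 (SE 0.62, adjusted p = 0.00718), whose size depends on the treatment of background, and it passed without any 1 array and under every other setting tried (adjusted p up to 0.0474). It was higher by 4.44 (SE 0.43, adjusted p = 0.0104) among Y-signal arrays, with 4.24 and no call without the mixed arrays (adjusted p = 0.116), and differed by 3.29 (SE 0.53, adjusted p = 0.181) among Xist-signal arrays. Cyp3a44 read 5.92, 9.20, 8.80, 6.86 and 8.08 in the controls and 9.22, 9.32, 8.30, 7.74 and 9.58 in the mutants. Its Xist-signal arrays were the highest of each group, the groups overlapped, and the difference was 1.06 (SE 0.65, adjusted p = 0.285). Cyp3a11, the main adult form and a PXR target, and Cyp3a25 read 14.61 ± 0.11 and 14.77 ± 0.22 (SD, n = 5) in controls, and Cyp3a11 differed by 0.12 (SE 0.11, adjusted p = 0.487). For Cyp3a25 the difference was 0.18 (SE 0.10, adjusted p = 0.253). Cyp3a13 differed by -0.06 (SE 0.33, adjusted p = 0.951). How far these probe sets share signal with those of close relatives was not tested.

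Of the other genes known for sex bias in adult liver, Cyp4a12a and Cyp2d9 are male-biased. Cyp4a12a encodes a fatty acid hydroxylase under androgen and growth hormone control. Cyp4a12a read 10.35, 7.61, 7.62, 11.27 and 10.35 in the controls and 9.93, 3.41, 9.82, 9.07 and 3.40 in the mutants. In both groups the Xist-signal arrays were the lowest, at 7.61 and 7.62 in controls and below the floor, at 3.41 and 3.40, in mutants. Over all 10 arrays the difference was -2.32 (SE 1.57, adjusted p = 0.336), and with the signal class as a term in the model it was -2.32 (adjusted p = 0.0296). Among Xist-signal arrays it fell by 4.21 (SE 0.37, adjusted p = 0.0367), with 2 arrays in each group, and among Y-signal arrays the difference was -1.05 (SE 0.30, adjusted p = 0.0798). The call among Xist-signal arrays was lost when the mixed arrays left the model (adjusted p = 0.102). The difference between these differences was 3.16 (SE 0.48, unadjusted p = 0.000236, adjusted p = 0.585). Cyp2d9 read 14.51, 13.33, 13.29, 14.42 and 13.97 in the controls and 13.91, 13.56, 13.80, 14.07 and 13.09 in the mutants. This testosterone hydroxylase was lowest in the Xist-signal arrays of each group and differed by -0.22 (SE 0.29, adjusted p = 0.654) between genotypes.

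Of 12 P450 genes listed as female-biased, 7 had a probe set of their own, of which 4 rose and 1 fell. Their median difference was 1.71, where 8.62% of all genes were higher and 11.5% lower. Those that rose were Cyp2b9, Cyp2b13, Cyp3a16 and Cyp17a1, and the member that fell was Cyp39a1, described with the other decreases. Probe sets shared by several P450 genes were not counted. Those of Cyp2a4 with Cyp2a5 and of Cyp3a41a with Cyp3a41b differed by 0.61 and 1.10 and were not called (adjusted p = 0.3 and 0.133 over all probe sets). Of 3 measured male-biased genes 0 rose and 1, Cyp2u1, fell, with a median of -1.36. Not every listed gene showed its bias in these controls. Xist-signal minus Y-signal controls gave 0.11 for Cyp17a1, 0.02 for Cyp39a1 and -0.21 for Cyp2b10 of the female-biased list. For Cyp2u1 of the male-biased list the value was 0.29. A control gap of at least 1 toward the Xist-signal arrays was seen for Cyp2b9, Cyp2b13, Cyp3a16 and Cyp3a44, and one of at least that size toward the Y-signal arrays for Cyp4a12a, Cyp2c55, Cyp2j9 and Cyp26b1. In the mutants 6 members had such a gap toward the Xist-signal arrays, Cyp2b10, Cyp2c37, Cyp2c38, Cyp2c39, Cyp3a16 and Cyp3a44, and 1, Cyp4a12a, toward the Y-signal arrays. In the fit within Y-signal arrays 7 members were higher and 2 lower, against 5.52% of all genes called. These were the same 7 that rose over all arrays, with Cyp2c23 and Cyp4b1. Within Xist-signal arrays 1 member, Cyp4a12a, was called, against 0.0162% of all genes. Without the mixed arrays limma called 0 members in either class. An unadjusted p under 0.05 was found for 14 of 55 members among Y-signal arrays and for 8 among Xist-signal arrays. Over all 12366 genes the same fit gave 2326 and 1076 at that p, with 5 and 0 called. For the difference between the classes, with all arrays kept, limma called 0 members and 0 of all genes. There, 4 members and 301 genes had an unadjusted p under 0.05. Besides Cyp2b9, Cyp2b13 and Cyp4a12a the fourth was Cyp26b1 (unadjusted p = 0.0109). With 3 and 2 arrays in each cell, and with arrays in both groups that carried mixed signal, these values describe the arrays at hand.

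**Figure D2:**
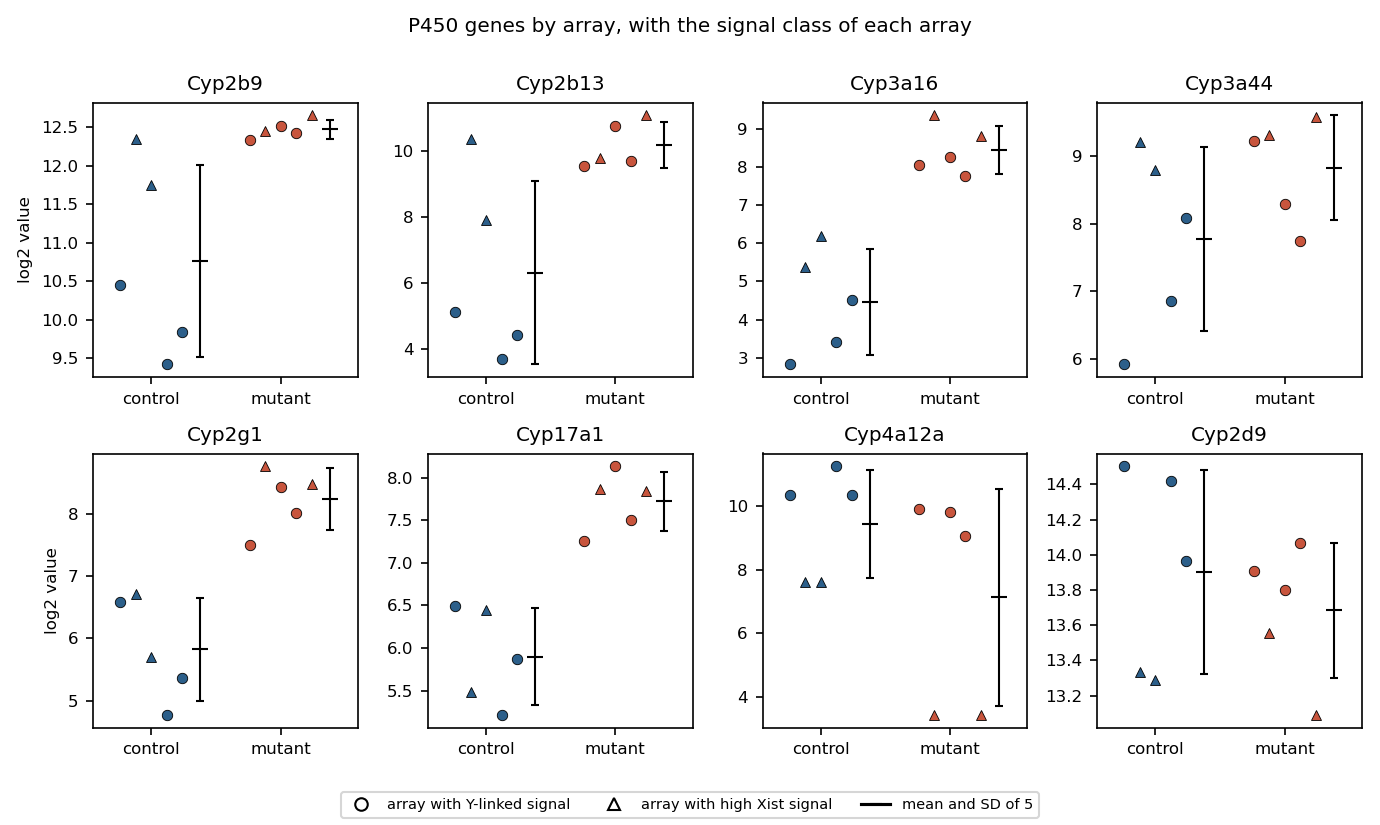
Log2 values of 8 P450 genes on each array, controls in blue and mutants in red, replicates 1 to 5 from left to right, with circles for arrays with Y-linked signal, triangles for arrays with high Xist signal, and the mean and SD of each group of 5. Controls of the 2 classes separate for Cyp2b9, Cyp2b13, Cyp3a16, Cyp3a44, Cyp4a12a and Cyp2d9. For Cyp2b9 and Cyp2b13 all mutants lie near or above the Xist-signal controls. Cyp4a12a is below the floor of 3.60 in both mutants with Xist signal.

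**Figure D3:**
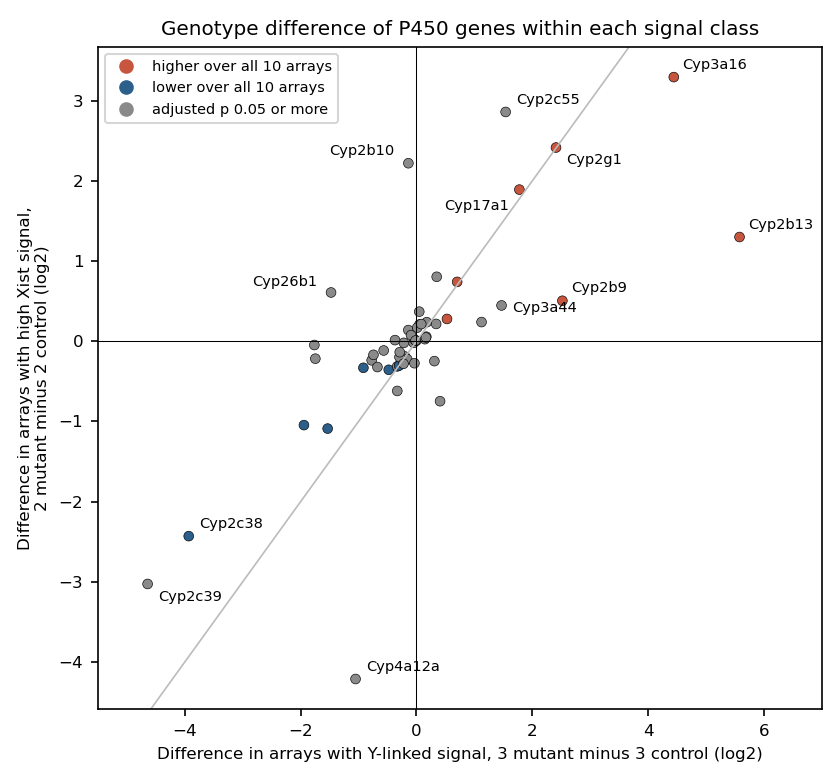
Genotype difference of each P450 gene among 3 control and 3 mutant arrays with Y-linked signal (horizontal axis) against that among 2 and 2 arrays with high Xist signal (vertical axis), in log2 units, with the line of equal differences. Cyp2g1 and Cyp17a1 lie close to the line, Cyp2b9 and Cyp2b13 lie to its right, and Cyp4a12a lies below it.

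Cyp2g1 and Cyp2a12 are neighbours of the Cyp2b genes in the gene order of GRCm38.p6. The run of P450 genes from Cyp2s1 to Cyp2t4 holds 13 P450 genes, of which 6 had a probe set of their own. Of these 6 genes 4 rose, where 8.62% of all genes were higher, and Cyp2b10 and Cyp2f2 were not called. The 4 were Cyp2g1, Cyp2a12, Cyp2b9 and Cyp2b13, and the calls of Cyp2b9 and Cyp2b13 were lost without most single arrays. A probe set shared by Cyp2a4 and Cyp2a5, also of this run, differed by 0.61 (SE 0.35) and was not called (adjusted p = 0.3 over all probe sets). Cyp2g1 is known from the olfactory mucosa. Cyp2g1 read 6.58, 6.71, 5.69, 4.76 and 5.36 in the controls and 7.49, 8.76, 8.43, 8.01 and 8.47 in the mutants. Every mutant lay above every control, the difference was 2.41 (SE 0.40, adjusted p = 0.00749), and it was 2.41 among Y-signal and 2.42 among Xist-signal arrays. Cyp2a12, a steroid hydroxylase, is abundant in adult liver. Cyp2a12 read 14.21, 14.39, 14.29, 14.20 and 14.20 in the controls and 14.69, 14.74, 14.73, 14.76 and 14.50 in the mutants. The groups did not overlap, and the difference was 0.43 (SE 0.06, adjusted p = 0.00657). Cyp2f2, an enzyme of naphthalene oxidation, follows Cyp2a12 in the run. It had 14.22 ± 0.12 (SD, n = 5) in controls against 14.03 ± 0.11 (SD, n = 5) in mutants and differed by -0.19 (SE 0.07, adjusted p = 0.109). Both Cyp2g1 and Cyp2a12 kept their call without any 1 array (adjusted p up to 0.0219 and 0.0198).

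Among the P450 targets of AHR, 1 of 3 rose. Cyp1a2 oxidises caffeine and aromatic amines and lies in hepatocytes around the central vein. Cyp1a2 read 13.89, 13.81, 13.58, 13.70 and 13.38 in the controls and 14.22, 14.55, 14.58, 14.28 and 14.32 in the mutants. Mutant values all exceeded the highest control value, and the difference was 0.72 (SE 0.11, adjusted p = 0.00705), which held without any 1 array (adjusted p up to 0.0203). Cyp1a1, which AHR induces most strongly, was below the floor on all 10 arrays. Cyp1b1 was below it on all arrays but 1, mutant array 2 at 3.64. Cyp2e1, the ethanol-oxidising pericentral enzyme, had 15.39 ± 0.11 (SD, n = 5) in controls against 15.48 ± 0.10 (SD, n = 5) in mutants, and differed by 0.10 (SE 0.07, adjusted p = 0.366).

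Of the 11 Cyp2c genes, which include epoxygenases of arachidonic acid, 2 fell, 0 rose and the median difference was -0.39. Cyp2c38 and Cyp2c39 are neighbours in the Cyp2c run and had the most negative differences of the family. Cyp2c39 read 11.26, 11.58, 11.22, 11.17 and 10.54 in the controls and 2.89, 4.90, 5.45, 10.71 and 11.85 in the mutants. The 5 controls lay within about 1 log2 unit, while mutant arrays 1, 2 and 3 were far below them and replicates 4 and 5 lay in or above their range. Cyp2c39, known for oxidation of retinoic acid, had a mean of 11.16 ± 0.38 (SD, n = 5) in controls against 7.16 ± 3.90 (SD, n = 5) in mutants, and the difference was -4.00 (SE 1.61, adjusted p = 0.11), and without mutant array 5 it was -5.17 (adjusted p = 0.0210), while with array weights the adjusted p was 0.0269. Cyp2c38 read 8.15, 8.11, 6.16, 7.88 and 6.14 in the controls and 2.35, 2.34, 3.29, 4.74 and 7.06 in the mutants. Mutant replicates 1, 2 and 3 were again lowest and below the floor, replicate 4 was below all controls, and replicate 5 lay inside the control range. Cyp2c38 fell by 3.33 (SE 0.93, adjusted p = 0.0346), kept the call without control array 5 or mutant array 5 (adjusted p = 0.0464 and 0.00265), and lost it without any other single array (up to 0.0771).

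Cyp2c23 read 13.06, 13.04, 12.89, 13.10 and 13.20 in the controls and 12.82, 12.66, 12.47, 12.63 and 12.55 in the mutants. The groups did not overlap for Cyp2c23, an epoxygenase that lies outside that run, and it fell by 0.43 (SE 0.08, adjusted p = 0.00968). That call was kept without any 1 array (adjusted p up to 0.0264) and lost without both mixed arrays (adjusted p = 0.0569). Cyp2c55 read 8.38, 6.69, 7.08, 9.52 and 8.35 in the controls and 10.91, 12.06, 10.22, 9.74 and 7.43 in the mutants. All mutants but replicate 5 exceeded all controls, and the difference of Cyp2c55 was 2.07 (SE 0.84, adjusted p = 0.114). Mutant replicate 4 stood apart for other members of the run, at 7.34 for Cyp2c37 against 11.47 to 12.71 in the other mutants and at 13.36 for Cyp2c68 against 14.69 to 15.05. It was also the lowest mutant for Cyp2c50, at 12.55, and Cyp2c54, at 12.17. Differences of these 4 genes were -1.13, -0.53, -0.20 and -0.24, and none of them was called. Cyp2c29 differed by -0.39 (SE 0.15, adjusted p = 0.103). Cyp2c70, which makes the muricholic acids of mouse bile, differed by -0.03 (SE 0.15, adjusted p = 0.946), and Cyp2c65 was below the floor on all arrays but control array 1.

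**Figure D4:**
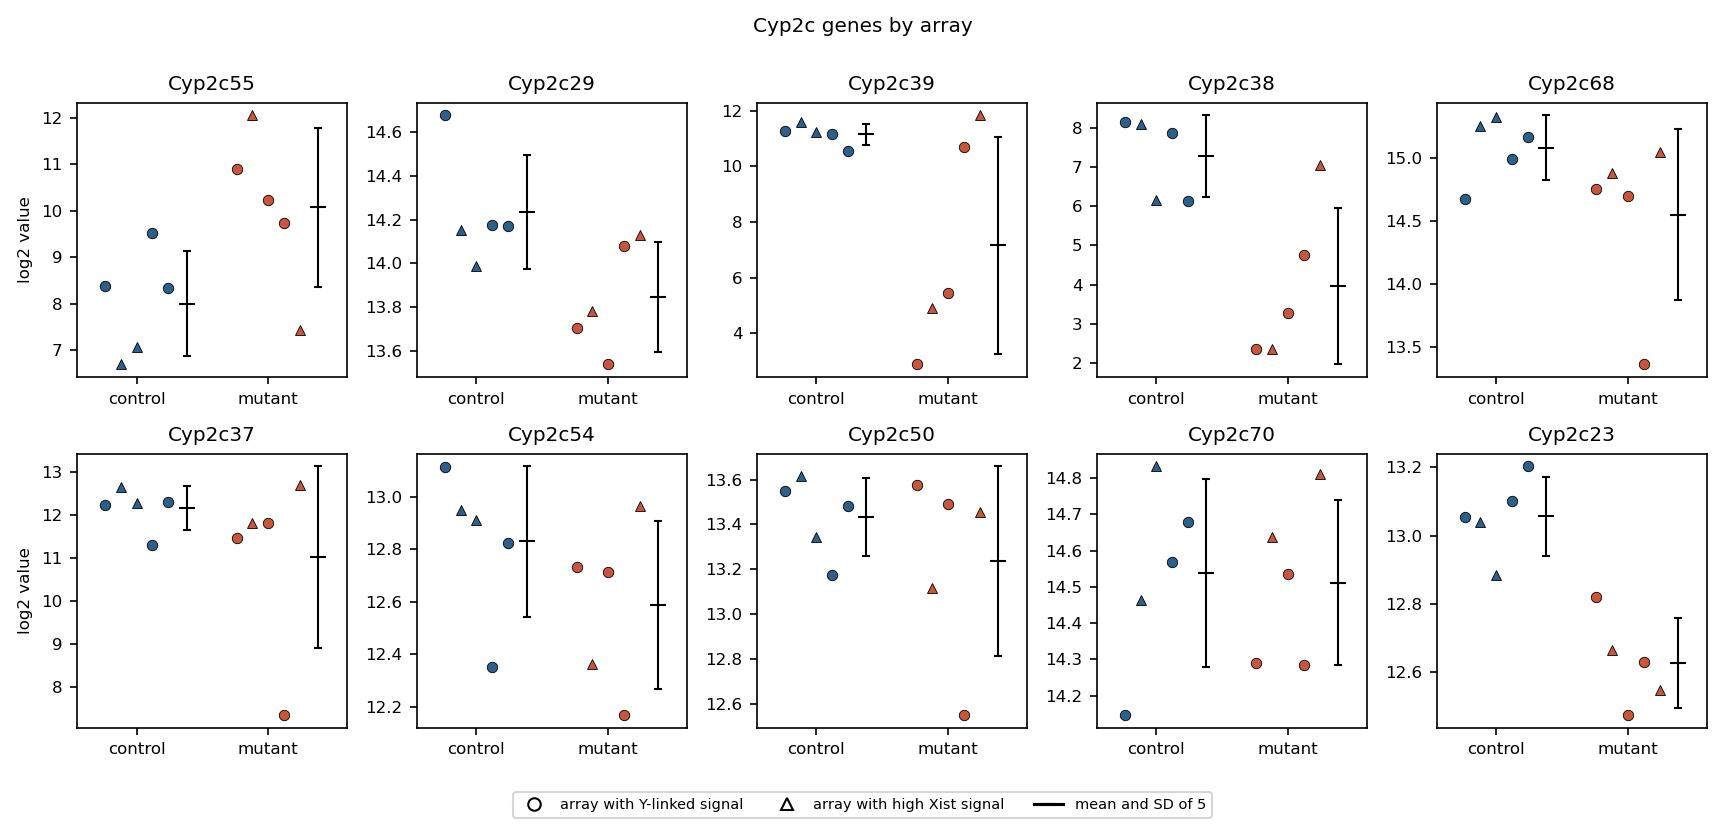
Log2 values of 10 Cyp2c genes on each array, with replicates 1 to 5 from left to right in each group, the signal class of the array as the symbol, and the mean and SD of 5; each panel has its own scale. Mutant replicates 1 to 3 are low for Cyp2c38 and Cyp2c39, mutant replicate 4 is low for Cyp2c37 and Cyp2c68, and the groups are separate for Cyp2c23.

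The 6 Cyp2d genes gave 0 calls by limma, with 1 at an unadjusted p under 0.05, and differences from -0.32 for Cyp2d40 to 0.29 for Cyp2d22. Cyp2d22 read 11.89, 11.52, 11.34, 11.52 and 11.55 in the controls and 11.90, 11.75, 12.15, 11.92 and 11.54 in the mutants. Its groups overlapped, at an adjusted p of 0.139, and it was called without mutant array 5 (0.37, adjusted p = 0.0469) and with array weights (adjusted p = 0.0461). Among the Cyp2j genes, epoxygenases of the liver and kidney, 1 of 3 fell and the median was -0.45. Cyp2j5 read 13.27, 13.29, 13.33, 13.28 and 13.28 in the controls and 12.94, 12.80, 13.05, 12.94 and 13.22 in the mutants. Controls lay close together, from 13.27 to 13.33, and all mutants were below them. Cyp2j5 fell by 0.30 (SE 0.07, adjusted p = 0.0214), lost its call without control array 3 or mutant array 4 (adjusted p up to 0.0516), and differed by 0.03 on its other probe set. As the mean of its probe sets it also lost the call (adjusted p = 0.219). Cyp2j9 differed by -1.08 (SE 0.49, adjusted p = 0.149) and Cyp2j6 by -0.45 (SE 0.16, adjusted p = 0.0734), with -0.61 on the other probe set of Cyp2j6 (adjusted p = 0.0456 over all probe sets).

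Single-gene subfamilies gave the other decreases. Cyp39a1 adds a hydroxyl group to 24-hydroxycholesterol on its way to bile acids. Cyp39a1 read 10.64, 10.44, 11.03, 10.97 and 10.55 in the controls and 8.38, 8.80, 9.55, 8.40 and 10.58 in the mutants. Mutant replicates 1 to 4 were below all controls and replicate 5 lay among them. Cyp39a1 fell by 1.58 (SE 0.40, adjusted p = 0.0254), and it lost the call without control array 3 or 4 or mutant array 1, 2 or 4 (adjusted p up to 0.0595). Cyp2u1 hydroxylates long-chain fatty acids. Cyp2u1 read 6.94, 7.15, 7.13, 6.87 and 6.75 in the controls and 5.27, 5.27, 6.09, 4.59 and 6.83 in the mutants. The same 4 mutants were low, and Cyp2u1 fell by 1.36 (SE 0.36, adjusted p = 0.0309) on a probe set that kept its call without mutant array 3 or 5 and lost it without any other single array (up to 0.0699). Its second probe set was below the floor on all 10 arrays and differed by 0.07, and the mean of both probe sets was not called (adjusted p = 0.0656). Cyp4b1 acts on fatty acids and furans. Cyp4b1 read 9.43, 9.70, 9.52, 9.43 and 9.69 in the controls and 8.35, 9.00, 8.85, 8.60 and 9.56 in the mutants. Mutant replicate 5 was once more within the control range. Cyp4b1 fell by 0.68 (SE 0.20, adjusted p = 0.0389) and kept the call without mutant array 5, but not without any other single array (up to 0.0889). Set against the average shift of the remaining mutants, mutant array 5 had a median ratio of 0.883 over the 13 called members. The ratios of mutant arrays 1 to 4 were 0.896, 1.28, 1.10 and 0.961. Mutant array 5 lay within the control range for these 3 genes and Cyp2c38. Mutant arrays 1, 2 and 4 lay within it for Cyp2b13, and array 1 also for Cyp2b9.

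**Figure D5:**
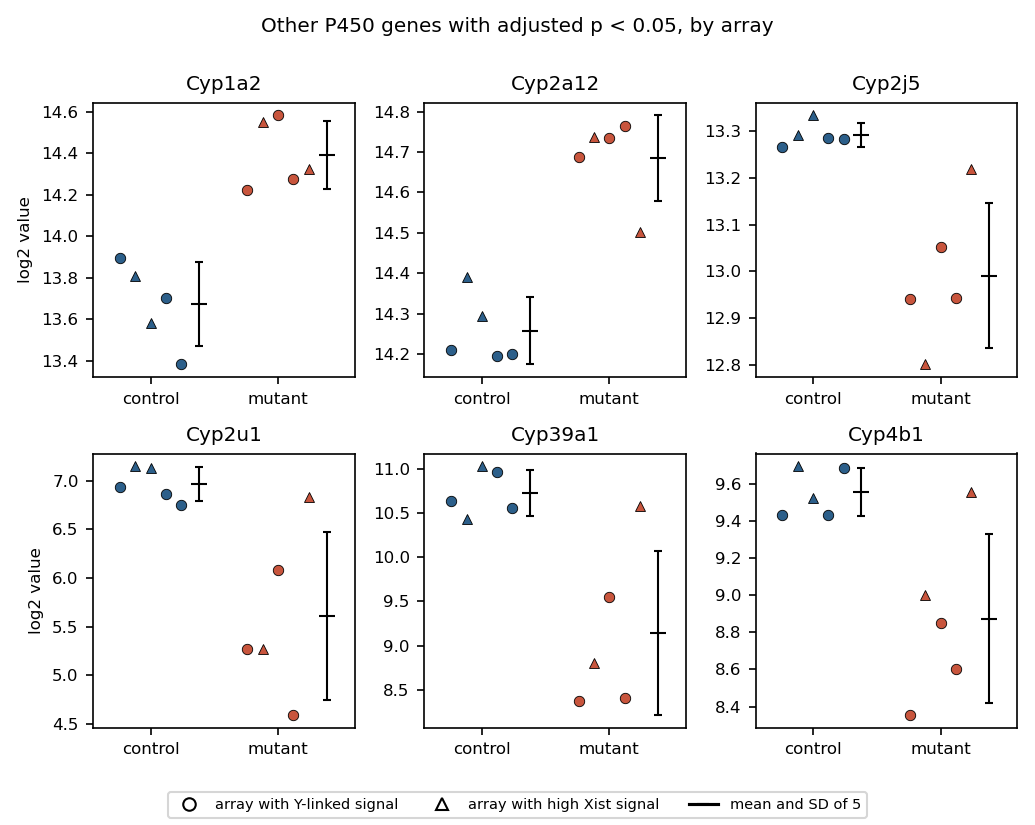
Log2 values of 6 further called P450 genes on each array, with replicates 1 to 5 from left to right, circles for Y-linked signal, triangles for high Xist signal, and the mean and SD of each group of 5. Groups are separate for Cyp1a2, Cyp2a12 and Cyp2j5, and mutant replicate 5 lies within the control range for Cyp2u1, Cyp39a1 and Cyp4b1.

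Family 4 otherwise gave 0 calls by limma among its 3 Cyp4a, 5 Cyp4f and 1 Cyp4v genes. Cyp4a14, a target of PPARA that hydroxylates fatty acids, had 13.49 ± 0.55 (SD, n = 5) in controls against 12.97 ± 0.40 (SD, n = 5) in mutants, and differed by -0.51 (SE 0.28, adjusted p = 0.231). Its Xist-signal controls were the lowest of their group. Cyp4a31 differed by 0.53 (SE 0.34, adjusted p = 0.314). Cyp4f16 differed by 0.77 (SE 0.29, adjusted p = 0.0942) and was called with array weights (adjusted p = 0.0473). Its levels lay between 3.597, in control array 1 and just below the floor of 3.6005, and 5.62. The differences of Cyp4f13, Cyp4f14 and Cyp4f15 were -0.13, -0.23 and 0.13. Cyp4v3 differed by -0.25 (SE 0.11, adjusted p = 0.129) and by -0.40 on its other probe set (adjusted p = 0.0475 over all probe sets).

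Of the steroid-forming P450 genes, Cyp17a1, the 17-hydroxylase and lyase of androgen synthesis, was the one above the floor. Cyp17a1 read 6.50, 5.48, 6.45, 5.21 and 5.87 in the controls and 7.26, 7.87, 8.14, 7.50 and 7.84 in the mutants. The lowest mutant lay above the highest control, and the difference of 1.82 (SE 0.28, adjusted p = 0.00657) held without any 1 array (adjusted p up to 0.0195). It was 1.78 among Y-signal arrays and 1.89 among Xist-signal arrays. Cyp11a1 and Cyp11b2, enzymes of the adrenal cortex, were below the floor on all 10 arrays. Of the adrenal markers, Star ran from 3.29 to 3.55 in controls and from 3.35 to 4.29 in mutants, and Hsd3b1 from 5.01 to 8.06 and from 4.81 to 6.41. Of 4 P450 genes of vitamin D and retinoids limma called 0, with 0 at an unadjusted p under 0.05. The retinoic acid hydroxylase Cyp26b1 differed by -0.64 (SE 0.43, adjusted p = 0.329) and Cyp26a1 by -0.56, and the latter was below the floor on all arrays but control array 5. Cyp2r1, which activates vitamin D in the liver, differed by -0.26 (SE 0.19, adjusted p = 0.373). Cyp24a1, which degrades vitamin D, and Cyp4f39 were below the floor on all 10 arrays. The orphan Cyp20a1 differed by 0.11 (SE 0.14, adjusted p = 0.635), and Cyp2d10, Cyp2d13 and Cyp2d26 by 0.12, 0.09 and 0.08.

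Genes that serve the P450 enzymes were taken from 7 lists, of which 37 genes were measured, and 2 were higher and 8 lower, where all genes gave 8.62% higher and 11.5% lower. Their median difference was -0.03, and 5 were lower without control array 1 or without mutant array 1, 3 or 4. In the list drawn up for electron donors of the microsomal enzymes, which also holds the outer-membrane Cyb5b, 3 of 5 measured genes fell and 0 rose. Cyb5a, the other cytochrome b5 gene measured, differed by 0.01 (SE 0.06, adjusted p = 0.94). The reductase that takes electrons from NADPH was not among the 5, so electron supply to the microsomal enzymes was not tested. Cyb5b read 11.04, 11.17, 10.93, 10.77 and 11.03 in the controls and 10.25, 9.88, 10.26, 9.55 and 10.55 in the mutants. All mutants lay below all controls, and this outer-membrane cytochrome b5 fell by 0.89 (SE 0.17, adjusted p = 0.0115). The cytochrome b5 reductase Cyb5r3 fell by 0.58 (SE 0.11, adjusted p = 0.0111). For Pgrmc2, a haem-binding protein, the decrease had an adjusted p of 0.00633, and it fell by 0.48. The mitochondrial ferredoxin Fdx1 fell by 0.46 (adjusted p = 0.049), a call kept without control array 5 or mutant array 5 and lost without any other single array (up to 0.107). That call was also lost under quantile normalization (adjusted p = 0.0658), after centring arrays on their median (0.0526) or 75th percentile (0.0520), and with the signal class as a term (0.0656).

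Haem synthesis moved in both directions, with 1 of 7 measured genes higher and 3 lower. Cpox rose by 0.26 (SE 0.05, adjusted p = 0.0142), and Urod, Uros and Fech fell by 0.42, 0.47 and 0.29 (adjusted p = 0.011, 0.0446 and 0.0274). Uros lost its call without control array 1, 2, 3 or 5 or mutant array 1, 2, 3 or 4, and Fech without control array 1, 4 or 5 or mutant array 1, 3 or 4 (adjusted p up to 0.094 and 0.0614). With the signal class as a term Uros also lost its call (0.0574). The rate-limiting enzyme Alas1 differed by 1.18 (SE 0.43, adjusted p = 0.081). Of 4 haem breakdown genes, the biliverdin reductase Blvrb fell by 0.96 (SE 0.18, adjusted p = 0.0104), and Hmox1, the haem oxygenase, differed by 1.95 (SE 0.68, adjusted p = 0.0703).

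Among 6 xenobiotic receptors and partners 1 rose, Ahr, by 0.60 (SE 0.14, adjusted p = 0.0179). Its values were 11.30, 11.01, 10.91, 10.58 and 10.76 in the controls and 11.34, 11.54, 11.61, 11.74 and 11.35 in the mutants, without overlap. The transcripts of PXR, CAR and PPARA, Nr1i2, Nr1i3 and Ppara, differed by 0.37, -0.03 and 0.09. Of 12 liver transcription factors 0 were called by limma and 1 had an unadjusted p under 0.05. This was Cux2, a repressor with higher expression in female liver, at 1.15 (SE 0.42, adjusted p = 0.0853). Stat5a differed by -0.55 (adjusted p = 0.171), and without mutant array 5 it fell by 0.74 (adjusted p = 0.0333). The epoxide hydrolases Ephx1 and Ephx2 differed by 0.21 and -0.03. Of 9 measured P450 targets of CAR and PXR limma called 0, with 2 at an unadjusted p under 0.05, and the median was -0.06. Of 2 measured P450 targets of PPARA it called 0, and 0 had such a p. For 10 measured P450 genes of arachidonate metabolism the median was -0.48, with 3 lower, Cyp2c38, Cyp2j5 and Cyp2u1, and 0 higher.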

How the data were processed

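Total RNA from liver was amplified and biotinylated, per the labels' protocols, and each liver sample has 1 array. The authors deposited log2 values per probe set, a scale inferred from their range of 0.27 to 16.7. How background was corrected and probes were summarised or normalized was not given in the sources used here. The table holds 25995 probe sets, of which 37 controls were left out. Platform annotation gave 1 symbol to 21613, several to 638 and none to 3707. Of the probe sets with several symbols, 4 carry a P450 symbol, and these were tested but not assigned to a gene. The 55 members had 66 probe sets with 1 symbol, and all 55 symbols matched RefSeq on GRCm38.p6 by gene identifier.

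Groups and replicate numbers came from the sample titles. Genotypes were compared by two-sided limma tests (version 3.58.1, lmFit then eBayes, R 4.3.3) without a block, with Benjamini-Hochberg adjustment over all 12366 genes, or over all probe sets where stated. Classes were read from 6 probe sets of Y-linked genes, divided at the midpoint between the highest and lowest array, and a model with 4 genotype and class means gave the differences within and between them. The members, lists and tests were chosen with earlier results of these data known. Genes were named when called, when they had the smallest p or largest difference of a subfamily of at least 2, or when their probe sets differed in sign with 1 called; the remaining members are given briefly. In each list, called genes were named, or else the 2 with the smallest p, and a few other genes of the lists are named for their function. On simulated data for the 12366 genes the genotype test recovered 24 of 50 genes changed by 0.5, 43 of 50 by 1, 48 of 50 by 2 and 49 of 50 by 3. The changed genes were drawn at random from all genes and were far fewer than the 2488 called in the data. P450 genes also varied more among controls, so these rates are not those of the P450 genes. Upstream windows were aligned globally with Biopython 1.88 (match 1, mismatch -1, gap opening -3, gap extension -1). Nothing says whether each sample is a separate animal, so the p-values reflect only how these samples vary, and the number of arrays limits precision. Alternatives were 3 scalings, a filter on dim genes, other probe set rules, other variance models, array weights, blocks and leaving out arrays.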

Additional observations from a re-analysis of the deposited data

Results flagged for a closer look

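Within a group of 5, 1 array stood apart from the others by more than 0.71 of the group's range in 11 of 110 groups of P450 values, where chance gives about 1 in 20. Mutant replicate 4 was low for Cyp2c37 at 7.34, against 11.47 to 12.71, and for Cyp2c68 at 13.36, against 14.69 to 15.05. Mutant replicate 5 was low for Cyp2a12 at 14.50, against 14.69 to 14.76, and high for Cyp2j9 at 6.10, against 4.61 to 4.69. Mutant replicate 2 was high for Cyp3a25 at 15.09, against 14.89 to 14.93. Among the controls, replicate 1 was high for Cyp2c29 at 14.68, against 13.99 to 14.18, and for Cyp2c65 at 3.72, against 2.75 to 2.84, where the other arrays were below the floor of 3.60. Control replicate 2 was high for Cyp2d40 at 8.02, against 7.45 to 7.53. Control replicate 5 was high for Cyp26a1 at 5.42, against 2.80 to 3.41. Below the floor, Cyp1a1 read 3.31, against 3.27 to 3.28, in control replicate 3, and 2.68, against 3.27 to 3.48, in mutant replicate 1.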

How the results depend on the processing

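The count of higher P450 genes lay between 5 and 7 without any 1 array and between 5 and 9 under the other settings. The count of lower ones, 6 as deposited, lay between 1 and 8 without any 1 array and between 5 and 8 under the scalings, filter, probe set rules, variance model, array weights and class term. With the replicate number as a block it was 3, and 5 genes were higher. Same-numbered samples correlated from -0.18 to 0.09 in their deviations from the group means. For each control the highest correlation with a mutant of another number lay between 0.03, for replicate 5, and 0.23, for replicate 3. Correlations this weak cannot decide whether same-numbered samples are related, which the labels do not say. Without control replicate 4 and mutant replicate 3 together, a setting chosen after the data were seen for the genotype counts, limma called 0 P450 genes lower, with 7 at an unadjusted p under 0.05, and 5 higher. Over all genes that setting gave 261 higher and 173 lower, with 8 arrays. Leaving out 1 array moved those counts, 1066 and 1422 as deposited, between 627 and 1371 and between 764 and 2160. By over 1.5 times this moved the higher count without mutant replicate 2 (696) or 4 (627), and the lower count without control arrays 3 (782), 4 (856) or 5 (930) or mutant arrays 1 (847), 2 (824), 3 (930), 4 (764) or 5 (2160). Among genes that serve P450 enzymes 2 to 3 were higher and 5 to 10 lower without any 1 array, and 8 of those 10 were among the lower genes as deposited. No named gene that was called changed sign. Cyp2u1 and Cyp2j5 lost their calls as the mean of their probe sets. With adjustment over all probe sets Cyp2b9, Cyp2b13 and Cyp4b1 were not called (adjusted p = 0.0599, 0.0606 and 0.0516). Signal near the floor of 3.60 limits the size of the Cyp3a16, Cyp2c38, Cyp2c39, Cyp4a12a and Cyp4f16 differences. The cause of these shifts was not tested.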

Other observations

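The 4 probe sets that carry several P450 symbols cannot be given to 1 gene. They carry Cyp4a10 with Cyp4a31, Cyp2a4 with Cyp2a5, Cyp4f16 with Cyp4f37, and Cyp3a41a with Cyp3a41b. In that order their differences were -0.23 (SE 0.19), 0.61 (SE 0.35), 0.99 (SE 0.36) and 1.10 (SE 0.44). Adjusted p was at least 0.107 over all probe sets. On the probe set with the difference of 1.10 the controls ran from 12.81 to 15.21 and the mutants from 15.09 to 15.50, and the groups overlapped through control replicate 2.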
